A study of Homo sapiens with 12 samples.

Results

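A set of 9 long noncoding RNAs with known places in the cell was followed through the Argonaute 2 (AGO2) precipitates of K562 cells, a human erythroleukemia cell line. The rows were chosen by name, as every row of the tables in which 1 of the listed gene names equals a member, and 10 of 61782 rows held the 9 genes. MALAT1, NEAT1 and KCNQ1OT1 form the nuclear set, and TUG1, OIP5-AS1, GAS5, SNHG1, SNHG5 and H19 the cytoplasmic set. The places are textbook knowledge and were not measured here, and TUG1 is also known from the nucleus. MALAT1 occurred on 2 rows of the same name, and SNHG1 shared its row with the small nucleolar RNA SNORD30, so that this value cannot be given to SNHG1 alone.

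K562 cells that carry an inducible C/EBPα (K562-C/EBPα-ER in the study's methods) had been transduced with the lentiviral vector pLV-miR-143 or with pLV-control, both with puromycin selection. Precipitates made with an AGO2 antibody are called AGO, and those made with unspecific IgG are the mock. There were 3 samples per the labels in each of the groups control_IgG, control_AGO, miR143_IgG and miR143_AGO. The values are the authors' averages per group in FPKM (fragments scaled to transcript length and to the mapped fragments of the library), 1 per row and group, so that no difference below has a replicate check or a test. Since FPKM is per length, levels of different genes can be set side by side. Library sizes are unknown, and in these bulk precipitates fewer cells with an RNA and less of it per cell cannot be told apart.

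AGO2 holds a microRNA (miRNA), whose seed, bases 2 to 8, pairs with target transcripts, and it acts mainly on cytoplasmic mRNA. MALAT1 is kept in nuclear speckles, NEAT1 builds paraspeckles, and KCNQ1OT1 silences an imprinted gene cluster from the chromatin it is made on. GAS5, SNHG1 and SNHG5 are spliced host transcripts whose introns give rise to small nucleolar RNAs (snoRNAs). H19 is an imprinted fetal RNA and the host of miR-675, and OIP5-AS1 (Cyrano) is known for a long pairing site for miR-7.

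The sequences below show which members hold a match to the seed of the miRNA carried by the vector, and to the seeds of let-7, which H19 is known to bind, and of miR-7. The mature miRNAs were taken from RefSeq (GRCh38.p14), and capitals mark the seed. Mature miR-143-3p lies at chr5:149428978-149428998 on the plus strand.
miR-143-3p: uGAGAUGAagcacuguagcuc
let-7a-5p: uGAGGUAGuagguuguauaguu
miR-7-5p: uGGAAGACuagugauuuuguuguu

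The 7-base matches TCATCTC (miR-143-3p), CTACCTC (let-7a-5p) and GTCTTCC (miR-7-5p) were searched on the transcript strand of the longest GENCODE 29 transcript of each member. Such a match is a description and not evidence of binding. For miR-143-3p, 1 match was found in MALAT1 (chr11:65501731-65501760 for the stretch shown, plus strand, exonic), 1 in OIP5-AS1 (chr15:41286042-41286071, plus strand, exonic) and 9 in the 91667 bases of KCNQ1OT1. In the other 6 members these letters did not occur. Among long noncoding transcripts of a length within 25%, the member itself included, 56.8% of 81 held the match for MALAT1. For OIP5-AS1 57.9% of 76 did, so that having it is common at such lengths. The shares of transcripts of like length given below also count the member itself. Capitals mark the matches.
MALAT1, miR-143-3p match: cagctttggttcatattcagTCATCTCagg
OIP5-AS1, miR-143-3p match: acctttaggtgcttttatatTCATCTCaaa

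OIP5-AS1 held 3 matches for miR-7-5p, and 42.1% of the 76 transcripts of like length held at least 1. In the match at chr15:41300572-41300601 (plus strand, exonic), shown because it is the long site the gene is known for, the 20 bases before the seed match held an unbroken run of 14 bases complementary to bases 11 to 24 of miR-7-5p. The longest such runs beside the other 2 matches were of 5 and 3 bases. KCNQ1OT1 held 6 matches for miR-7-5p, and no further member held any. For let-7a-5p, NEAT1 held 3 matches (81.8% of 11 transcripts of like length held at least 1), OIP5-AS1 1 (35.5% of 76) and KCNQ1OT1 8. In H19 none of the 3 motifs occurred, as in most transcripts of its length, of which 11.4% of 1978 held the let-7a-5p match.
OIP5-AS1, long miR-7-5p match: agaacaacaaaatcaccaatGTCTTCCatt

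Among the nuclear RNAs, MALAT1 (chr11:65497688-65506516, plus strand) was far lower in both AGO precipitates than in the mock. In control cells its higher row was at 489 FPKM in the mock against 69.0 FPKM in AGO, and in miR-143 cells at 736 FPKM against 41.1 FPKM. By plain ratio the mock was 7.09 times higher in control cells and 17.9 times higher in miR-143 cells. The lower row had the same direction in both populations, with 38.4 FPKM (mock) and 5.77 FPKM (AGO) in control cells and 19.1 and 0.272 FPKM in miR-143 cells. A further row for the tRNA-like RNAs cut from the ends of MALAT1 and NEAT1 (mascRNA-menRNA, looked up after the values were seen) was listed at 0 in all 4 groups.

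NEAT1 (chr11:65422774-65445540, plus strand) was low, with 0.964 FPKM in the mock and 0.740 FPKM in AGO of control cells and with 2.68 and 3.59 FPKM in those of miR-143 cells. Unlike MALAT1 it did not stand lower in AGO in both populations, with a plain ratio of AGO over IgG of 0.768 in control and 1.34 in miR-143 cells. KCNQ1OT1 (chr11:2608328-2699994, minus strand, antisense within KCNQ1) was at 0.105 FPKM (mock) and 0.0876 FPKM (AGO) in control cells and at 0.0125 and 0.00678 FPKM in miR-143 cells. A level this low does not mean that single fragments were counted, since the gene is long. The product of FPKM and transcript length has a low edge in each group, the lowest values listed above 0, and KCNQ1OT1 was 11.4 to 135 times above it. NEAT1 was 31.1 to 1494 times above it, taking its longest transcript of 22743 bases. As NEAT1 has 8 transcripts, these multiples are overstated where shorter ones made up its level.

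Of the cytoplasmic RNAs, the snoRNA hosts were abundant in the mock and much lower in AGO. GAS5 (chr1:173863900-173868882, minus strand) reached 705 FPKM in the mock but 107 FPKM in AGO of control cells, and 629 against 101 FPKM in miR-143 cells. SNHG5 (chr6:85660950-85678748, minus strand) reached 639.6 against 35.04 FPKM in control cells and 697 against 37.04 FPKM in miR-143 cells. These 2 genes thus differed between AGO and IgG by nearly the same factor in both populations, 6.58 and 6.20 for GAS5 and 18.3 and 18.8 for SNHG5. The joined row of SNHG1 (chr11:62851988-62855914, minus strand) and SNORD30 was at 159.6 against 76.7 FPKM and at 227 against 67.01 FPKM, which is 2.08 and 3.38 times lower in AGO.

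H19 (chr11:1995176-2001470, minus strand) had the opposite pattern. It was listed at 0 in the mock of both populations, while the AGO precipitates held 30.7 FPKM (control) and 36.1 FPKM (miR-143), the same order of level as SNHG5 in those precipitates. No fold is given against a listed 0, which can be a failed estimate: HPRT1, a gene every cell uses, was also listed at 0 in both control groups. For a transcript as long as that of H19, the low edge of the mock lay at 0.300 FPKM in control cells and 0.0382 FPKM in miR-143 cells.

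OIP5-AS1 (chr15:41283990-41309737, plus strand) differed less, with 48.04 FPKM in the mock and 24.8 FPKM in AGO of control cells and 33.7 and 20.8 FPKM in those of miR-143 cells. TUG1 (chr22:30969245-30979395, plus strand), which went from 17.0 FPKM in the mock to 59.2 FPKM in AGO in control cells and from 5.62 to 2.92 FPKM in miR-143 cells, was the only member above 0 in all groups that was at least 2-fold higher in an AGO precipitate than in its mock. It was 3.49 times higher in control_AGO than in control_IgG but 1.93 times lower in miR143_AGO than in miR143_IgG.

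**Figure D1:**
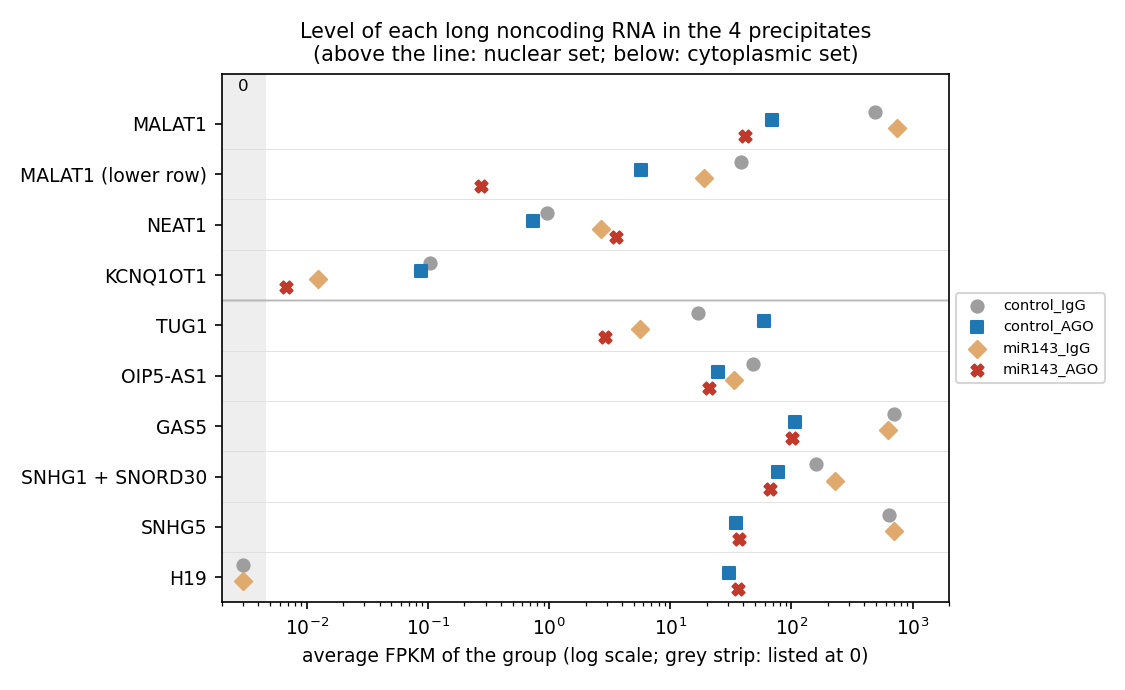
Average FPKM per group (log axis) of the 10 rows that hold the 9 genes, the nuclear set above the line and the cytoplasmic set below it, with values listed at 0 in the grey strip. MALAT1, GAS5, SNHG1 and SNHG5 lie further right in both IgG groups than in both AGO groups, while H19 is at 0 in both IgG groups and at 30.7 and 36.1 FPKM in the AGO groups.

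The order of the levels changed between the precipitates. In control_IgG it ran GAS5, SNHG5, MALAT1, SNHG1, OIP5-AS1, TUG1, NEAT1, KCNQ1OT1, with H19 last. In control_AGO it ran GAS5, SNHG1, MALAT1, TUG1, SNHG5, H19, OIP5-AS1, NEAT1, KCNQ1OT1. The 7 highest members lay between 24.8 and 107 FPKM there, and without replicate values it cannot be said which neighbours in either order differ beyond their spread.

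Whether the nuclear RNAs stood lower in AGO relative to the mock than the cytoplasmic ones was then asked with the log2 ratio of AGO over IgG. No input sample is among the groups, so this ratio is relative to the mock and is not by itself a measure of AGO2 binding. It was computed on FPKM + 1 over rows of at least 1 FPKM in 1 of the groups. In control cells 7 of the 9 genes passed this filter, all but NEAT1 and KCNQ1OT1, and in miR-143 cells 8, all but KCNQ1OT1. A comparison of sets therefore rests on MALAT1 alone in control cells. Its log2 ratio of −2.81 lay within the range of the cytoplasmic members, below GAS5 (−2.71), SNHG1 (−1.05), OIP5-AS1 (−0.92) and TUG1 (1.75) and above SNHG5 (−4.15). In miR-143 cells MALAT1 (−4.13) lay next to SNHG5 (−4.20) and below GAS5 (−2.62), SNHG1 (−1.74), TUG1 (−0.76) and OIP5-AS1 (−0.67), while NEAT1 was at 0.32. The nuclear and the cytoplasmic set overlapped in both populations.

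Counted by fold, 4 of 7 members were at least 2-fold lower in AGO in control cells (MALAT1, GAS5, SNHG1, SNHG5), against 36.2% of 9919 rows, and TUG1 was at least 2-fold higher, against 34.5%. In miR-143 cells the same 4 genes of 8 were at least 2-fold lower, against 33.5% of 10643 rows and no member above 0 in both groups was at least 2-fold higher, against 26.6%. At 10-fold, SNHG5 was lower in control cells (background 4.98%), and MALAT1 and SNHG5 were lower in miR-143 cells (3.67%). At least 10-fold higher in AGO were 4.38% of rows in control and 1.6% in miR-143 cells. H19 passed the filter only through its AGO values and, with a listed 0 in the mock, is counted past no fold. It stays among the 7 and 8 members, whereas the shares of all rows also count rows listed at 0 in 1 group. The counts of members and these shares thus follow different rules for a listed 0. Among all rows compared, 1.74% in control and 1.32% in miR-143 cells were as low as SNHG5, and 8.98% and 1.45% as low as MALAT1. High rows were often lower in AGO. Among rows of 1 gene name within 2-fold of its mean level, 3.88% of 129 in control and 8.13% of 123 in miR-143 cells were as low as SNHG5, and for MALAT1 these shares were 19.6% of 168 and 8.47% of 118. With the groups scaled to the same median, the control ratio of SNHG1 went to −0.32 and no longer passed 2-fold. That scaling also turned the split of all rows in control cells to 42.3% higher and 27.5% lower, and a scaling to equal sums of protein-coding rows turned that in miR-143 cells to 34.6% higher and 27.0% lower, while MALAT1, GAS5 and SNHG5 stayed over 2-fold lower under both.

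**Figure D2:**
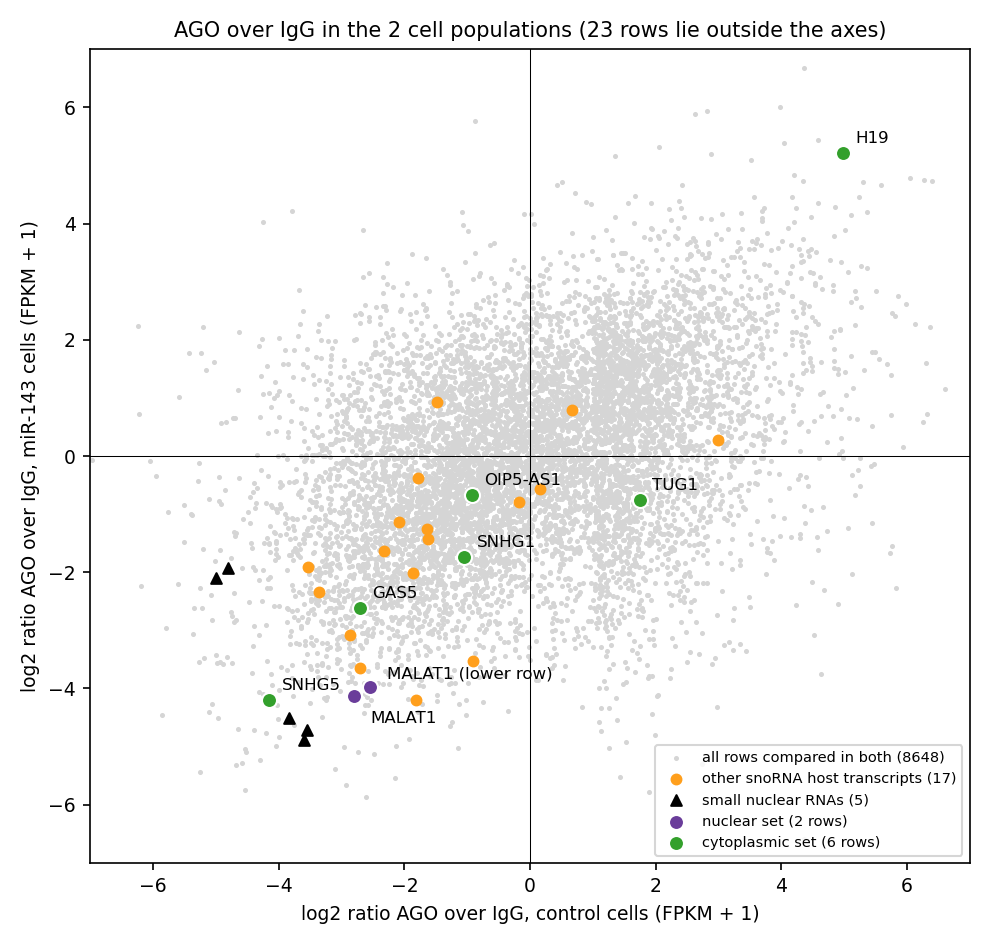
Each point is a row compared in both cell populations, placed by the log2 ratio of AGO over IgG, that of control cells on the x axis and that of miR-143 cells on the y axis, both on FPKM + 1. MALAT1, SNHG5 and GAS5 lie low on both axes. H19 lies high on both at a place that depends on the pseudocount, and TUG1 is at 1.75 on the x axis and at −0.76 on the y axis.

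Small nuclear RNAs were low in AGO alongside MALAT1. All 5 rows of that list compared in control cells and all 6 in miR-143 cells were at least 2-fold lower in AGO, with medians of −3.84 and −4.61. These include RNU12, listed at 0 in control_AGO, and RNU4ATAC, listed at 0 in miR143_AGO. Over rows above 0 in both groups the medians were −3.72 and −4.50. RN7SK, the RNA of the 7SK particle that restrains transcription elongation, went from 280876 FPKM in the mock to 23862 FPKM in AGO in control cells and from 277835 to 10609 FPKM in miR-143 cells. The part of such nuclear RNA in the values of MALAT1 was not tested. Of 9 housekeeping mRNAs compared, 4 were at least 2-fold lower and 1 was higher in control cells, and 5 and 1 in miR-143 cells, beside 36.2% lower and 34.5% higher of all rows in control cells and 33.5% and 26.6% in miR-143 cells. GAPDH, a glycolytic enzyme and 1 of these, had log2 ratios of −0.28 and −0.16.

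The wider lists of long noncoding RNAs were compared next. Most other snoRNA hosts were also lower in AGO. Of 17 rows compared in control cells, 12 were at least 2-fold lower in AGO and 1 was higher, with a median of −1.79. Of all rows 36.2% were lower and 34.5% higher there. In miR-143 cells 12 of 18 were lower and 0 higher, with a median of −1.53, beside 33.5% and 26.6% of all rows. With the same median 9 of 17 and 11 of 18 were lower, beside 27.5% and 31.1% of all rows. With equal coding sums 12 and 9 were lower, beside 30.1% and 27.0%. All rows had medians of −0.19 and −0.22, protein-coding rows −0.12 and −0.14, and long noncoding rows outside the members −1.08 (214 rows) and −0.35 (261 rows), the latter 0.09 with equal coding sums. Of these 214 rows 106 were listed at 0 in 1 of the groups, against 1 of the 17 hosts. Over rows above 0 in both control groups the medians were −0.54 for protein-coding rows, −1.41 for long noncoding rows outside the members and −1.81 for the hosts. The lowest hosts in control cells were SNHG10 (−3.53), ZFAS1 (−3.36) and SNHG12 (−2.86), and in miR-143 cells these were at −1.90, −2.33 and −3.07. ZFAS1 went from 243.5 to 22.9 FPKM in control cells and from 158 to 30.6 FPKM in miR-143 cells. At the other end, SNHG16 was higher in AGO in both, from 179 to 286 FPKM (0.67) and from 167 to 291 FPKM (0.80). EPB41L4A-AS1 was at 0.15 and −0.57. SNHG11, the 1 host that was higher, was listed at 0 in the control mock against 6.98 FPKM in AGO. The rows of SNHG3, SNHG4 and SNHG20 were joined with the genes RCC1, MATR3 and SEC14L1, so that these values cannot be given to the hosts alone. Those of SNHG3 and SNHG4 are among the rows at least 2-fold lower in both populations.

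Of 12 further nuclear RNAs, 4 rows could be compared in control and 5 in miR-143 cells. At least 2-fold lower in AGO were 3 and 4 of them, beside 36.2% and 33.5% of all rows. MEG3, an imprinted nuclear RNA, went from 217 FPKM in the mock to 18.9 FPKM in AGO in control cells and from 241 to 24.4 FPKM in miR-143 cells. JPX, an activator of XIST, shared its row with a clone-named transcript and had log2 ratios of −3.12 and −2.25, and PVT1 had −1.42 and −0.77. The row of MIAT, joined with 2 other names, was listed at 0 in the control mock against 1.26 FPKM in AGO, and went from 1.88 to 0.0554 FPKM in miR-143 cells.

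Of the further cytoplasmic RNAs, 3 of 12 rows in control cells were at least 2-fold lower in AGO and 4 higher, beside 36.2% and 34.5% of all rows. Of these 12 rows 4 were listed at 0 in 1 of the groups, and LINC00657 was the only higher row above 0 in both. The counts thus depend on listed zeros, which also enter the shares of all rows. In miR-143 cells 5 of 9 rows were lower and 1 was higher, against 33.5% and 26.6%. The row higher in both was LINC00657, the gene now called NORAD, which binds PUMILIO proteins in the cytoplasm. It went from 28.8 to 103 FPKM in control cells and from 20.7 to 75.7 FPKM in miR-143 cells, with log2 ratios of 1.80 and 1.82. UCA1 was at −3.08 and −1.77, and the joined row of THAP9-AS1 and SEC31A at −2.29 and −2.56. TP53TG1 had 3.26 FPKM in the control mock and was listed at 0 in AGO. The joined row of PCBP1-AS1 and ASPRV1 and the row of MCM3AP-AS1 were listed at 0 in the control mock against 8.33 and 1.92 FPKM in AGO. Rows for the snoRNAs nested in GAS5, SNHG1 and SNHG5 did not add to this, as 27 of 28 were listed at 0 in all groups and the remaining one was that of SNHG1.

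**Figure D3:**
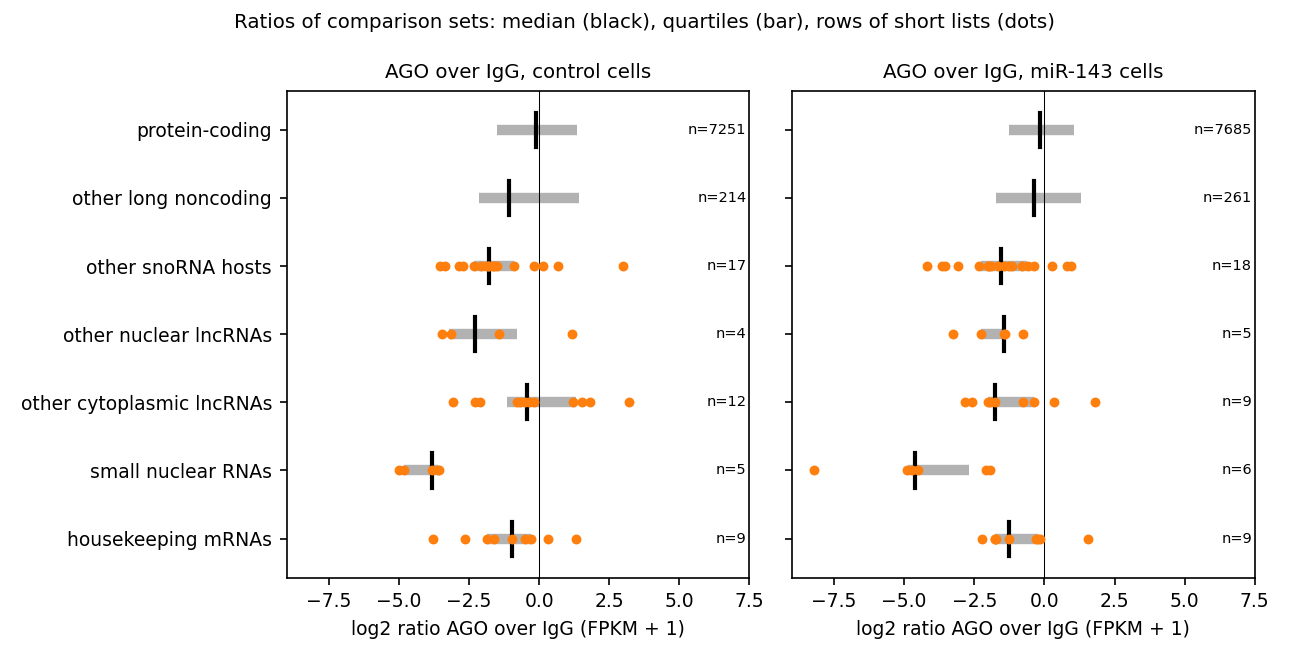
Log2 ratio of AGO over IgG on FPKM + 1 (x axis) for comparison sets in control cells (left) and miR-143 cells (right), with the median as a black mark, the quartiles as a bar, the rows of short lists as dots and the number of rows as n. The median of the other snoRNA hosts lay at −1.79 and −1.53, below the protein-coding median of −0.12 and −0.14, and that of the small nuclear RNAs at −3.84 and −4.61.

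The cell populations were then compared within each precipitate, the question the study asked of miR-143. The AGO and the IgG comparison both share their libraries with the ratios of AGO over IgG above, so that neither is an independent check. GAS5, SNHG1, SNHG5, OIP5-AS1 and H19 differed little between control_AGO and miR143_AGO, with log2 ratios of miR-143 over control of −0.08, −0.19, 0.08, −0.25 and 0.22. The median over 9798 rows was 0.17. MALAT1 was at −0.73 on its higher row and at −2.41 on its lower row. TUG1 had the largest difference of the members, −3.94, from 59.2 to 2.92 FPKM, and 0.429% of rows were as low. NEAT1 was higher, at 1.40, from 0.740 to 3.59 FPKM, and this log2 ratio went to 2.14 and 2.26 with pseudocounts of 0.1 and 0.01. Of the 8 genes compared, NEAT1 was thus the only one at least 2-fold higher (17.7% of all rows were) and TUG1 the only one at least 2-fold lower (14.1% of rows). With the same median 12.5% of rows were higher and 17.0% lower, and NEAT1 and TUG1 kept their direction.

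Both differences had the same direction in the mock precipitates. TUG1 went there from 17.0 FPKM in control to 5.62 FPKM in miR-143 cells, a log2 ratio of −1.44, and NEAT1 from 0.964 to 2.68 FPKM, a log2 ratio of 0.91. Of 7 members compared in the mock pair on FPKM + 1, TUG1 was at least 2-fold lower, against 26.8% of 10172 rows. None was 2-fold higher, against 36.2%, though NEAT1 was 2.78 times higher by plain ratio. The log2 ratio of MALAT1 was 0.59 there and that of SNHG1 0.50. KCNQ1OT1 was under 1 FPKM in every group. By plain ratio it was 12.9 times lower in miR143_AGO than in control_AGO and 8.38 times lower in miR143_IgG than in control_IgG. Of the members with a match to the miR-143-3p seed, OIP5-AS1 and the higher row of MALAT1 were thus within 2-fold in the AGO pair. The lower row of MALAT1 and KCNQ1OT1 were lower there by plain ratio, 21.2 and 12.9 times. TUG1, which holds no such match, was 20.3 times lower in the same pair. In the mock pair the lower row of MALAT1 was 2.01 times lower. A link between the match and these differences was not tested.

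**Figure D4:**
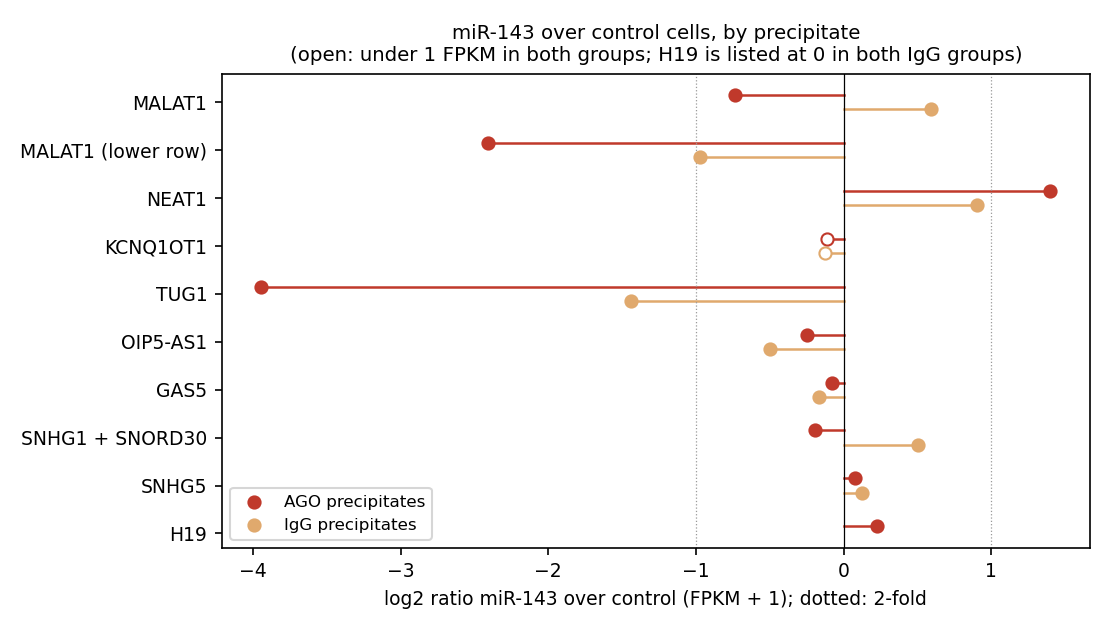
Log2 ratio of miR-143 over control cells on FPKM + 1 (x axis) for each row that holds a member, in the AGO precipitates and in the IgG precipitates, with dotted lines at 2-fold and open points for rows under 1 FPKM in both groups. TUG1 (−3.94 and −1.44) lies to the left and NEAT1 (1.40 and 0.91) to the right in both, and the snoRNA hosts lie near 0 in AGO.

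Rows with the most similar pattern were sought by the Euclidean distance of log2(FPKM + 1), centred on the mean over the 4 groups among rows of 1 name with a mean of at least 5 FPKM. Nearest to MALAT1 were RPL9 (distance 0.14) and RP6-159A1.3 (0.15), to GAS5 SRSF5 (0.09) and AC004453.8 (0.15), and to SNHG5 ANAPC4 (0.23) and RN7SKP255 (0.24). Nearest to SNHG1 were NHP2L1 (0.10) and FZR1 (0.12), and to OIP5-AS1 COMMD6 (0.08) and ZNF428 (0.08). TUG1 had no neighbour as close, with SPARC at 0.47 and TRANK1 at 0.76. In control_AGO and miR143_AGO, ANAPC4 was at 0.114 and 0.321 FPKM and RP6-159A1.3 at 0.773 and 0 FPKM. These values lie under the pseudocount of 1, so the distances of these 2 rows depend on it. With 4 values a gene, small distances are easily reached.

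The label of the cells was checked against marker lists. All 8 rows with erythroid markers of K562 were above 0 in control_AGO, miR143_IgG and miR143_AGO and 7 in control_IgG, with summed levels of 412 to 1028 FPKM. HBG1, HBG2 and HBE1 share a joined row with OR51B5 and clone-named genes, which holds 229 to 523 FPKM of these sums. EPOR shares its row with RGL3. Lymphoid markers summed to 0 to 5.18 FPKM and monocyte and fibroblast markers to 0.0500 to 6.27 FPKM, with CD3E, MS4A1, CD14 and COL1A2 listed at 0 in all groups. The low edge of control_IgG was 12.9 times that of miR143_AGO, against 1.09 times in control_AGO and 1.64 times in miR143_IgG.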

How the data were processed

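RNA from AGO2 and IgG precipitates of K562 cells was sequenced, and the authors deposited 4 tables, each with 1 column of FPKM named as the average of its group. Per the labels, TopHat, Cufflinks and hg38 were used. Versions and annotation are not given in the sources used here. The labels describe removal of ribosomal RNA and random priming, the study's methods a TruSeq RNA kit, which bears on RNAs without a poly(A) tail such as mature MALAT1. Depth is unknown, and as replicates were averaged no interval, SD or p-value could be given. The members and lists were chosen with earlier results of these data known.

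Ratios were log2 of (FPKM + 1) over (FPKM + 1) for rows of at least 1 FPKM in 1 of both groups, which understates changes of low genes. A row counted as higher or lower at 2-fold or, as a stricter rule, 10-fold. The foreseen limma test needs replicate values and was not run. The low edge is the 10th lowest product of FPKM and length over genes with 1 transcript. Gene models and transcripts were from GENCODE 29 (GRCh38), matched by symbol. For MALAT1 the higher row stands for the gene, a choice made after seeing the values. Named genes are the members and, of each wider list, the 3 highest and 3 lowest control ratios; RN7SK and GAPDH stand for their lists, and other genes were named after their values were seen. Alternatives were pseudocounts of 0.1 and 0.01, 2 other filters, 2 scalings, leaving out the joined row and the lower MALAT1 row. The ratio code was tested on simulated data. Python 3.11.15, pandas 2.3.3 and numpy 2.4.6 were used.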

Additional observations from a re-analysis of the deposited data

Results flagged for a closer look

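In 2 genes above 0 in all groups, the ratio of AGO over IgG had opposite signs in the control and the miR-143 cells, was past 2-fold in at least 1 of them and differed by at least 2 log2 units. For TUG1 the control cells had a log2 ratio of 1.75 and the miR-143 cells −0.76, a difference of −2.50, and for the snoRNA host SNHG7 it was −1.49 and 0.94, a difference of 2.42, from 29.1 to 9.74 FPKM in control cells and from 3.15 to 6.94 FPKM in miR-143 cells. Of all 6616 rows above 0 in all groups that could be compared in both populations, 17.1% met the same criteria, and of the 33 such rows of the members and wider lists 6.06% did, so that such reversals were common in these data. With 1 average per group the difference was not tested.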

How the results depend on the processing

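No paired analysis was possible because the replicates had been averaged into 1 value for each group, and leaving out replicates was not run for the same reason. Of the ratios past 2-fold in the 4 comparisons of members, H19 left aside, 12 of 12 kept their direction and their side of 2-fold with both smaller pseudocounts, without the filter and with the lower MALAT1 row (added after seeing the data). With either scaling 11 of 12 did, the exception being SNHG1 in control cells (−0.32 at the same median). The same median shifted the median of all rows by 0.63 (control) and 0.15 (miR-143) for AGO over IgG, by −0.20 for the AGO pair and by 0.28 for the IgG pair. Equal sums of coding rows shifted AGO over IgG by 0.45 and 0.42. Counts of members past 2-fold moved by over 1.5 times in a few cases. In the AGO pair, members higher went from 1 to 0 with a mean of at least 5 FPKM, which leaves out NEAT1, and members lower from 1 to 2 with the lower MALAT1 row (−2.41). In the IgG pair, members higher went from 0 to 1, NEAT1, with a pseudocount of 0.1 or 0.01 and with the same median. The low edge was highest in control_IgG, and depth itself is unknown.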
